A study of Mus musculus with 6 samples.

Results

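The 10 circadian clock genes described here are the activators Clock and Arntl, the repressors Per1, Per2, Cry1, Cry2, Nr1d1, Nr1d2 and Bhlhe40, and the output gene Dbp. They were taken by symbol, with no use of their values, from a table of 20654 genes, and all 10 were found. RNA-seq was performed on mouse muscle satellite cells (MuSCs), the stem cells of skeletal muscle, which were sorted from mice of the C57BL/6 background and grown for 3 d. The 3 libraries labelled wild type are the controls (Piezo1+/+; Pax7CreERT2/+), and the 3 labelled Piezo1 cKO, here called cKO-labelled, are from Piezo1flox/flox; Pax7CreERT2/+ mice, in which the mechanosensitive ion channel gene Piezo1 can be deleted. Both groups carried the tamoxifen-dependent Cre recombinase driven from the Pax7 locus, which is active in MuSCs, and both were grown with 1 μM 4-OH TMX, 30% serum and 10 ng/ml basic fibroblast growth factor. The study's methods also give daily tamoxifen injections of mice for ex vivo studies. The sources used here do not say whether the 3 libraries of a group came from separate mice, so p-values measure the spread between these libraries, which may be technical. The hour at which cultures were collected is not given in the sources used here, and each culture was collected once, so the values are single levels and carry no phase or amplitude.

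In mammalian cells, CLOCK and ARNTL (also named BMAL1) bind DNA together at E-boxes and switch on the Per, Cry and Nr1d genes. PER and CRY proteins then inhibit the CLOCK-ARNTL pair, and the REV-ERB receptors made from Nr1d1 and Nr1d2 repress Arntl, so that a loop with a period of about a day results. BHLHE40 competes for E-boxes, and DBP, a transcription factor, carries the rhythm to further genes through D-boxes. Skeletal muscle and its stem cells hold such a clock, and a change to serum-rich medium is known to reset it in cultured cells.

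The sequences below show where the loop's own binding letters lie at 5 promoters of the loop, since they join the activating limb to the repressing limb. Promoters were taken from RefSeq (GRCm38.p6) as 250 bases before and 50 after each start, and 8 of the 10 clock genes had an entry. Both strands were searched. The E-box letters CACGTG were in 7.15% of all 32851 promoters and, among the clock genes, in those of Per1 and Cry1. The related letters CACGTT were in 4.68% of promoters and in those of Cry1, Cry2 and Nr1d1. The ROR element TAGGTCA, which REV-ERB and ROR receptors share, was in 2.61% of promoters and in that of Arntl. Neither the D-box TTATGTAA, in 0.938% of promoters, nor the cAMP element TGACGTCA, in 1.79%, was found at a clock gene with an entry. Counted per gene symbol, as the clock genes are, these shares were 8.09%, 5.44%, 2.97%, 1.11% and 2.03%, in the order given. These letters were matched by spelling, and no binding was measured. Each stretch is printed 5′ to 3′ on the strand of its gene, with the motif in capitals.
Arntl: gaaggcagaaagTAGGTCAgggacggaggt
Per1: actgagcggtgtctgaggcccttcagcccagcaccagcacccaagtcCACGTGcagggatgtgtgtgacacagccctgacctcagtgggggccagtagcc
Cry1: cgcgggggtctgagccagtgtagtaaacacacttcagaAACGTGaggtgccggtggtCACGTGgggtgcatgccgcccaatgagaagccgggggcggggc
Nr1d1: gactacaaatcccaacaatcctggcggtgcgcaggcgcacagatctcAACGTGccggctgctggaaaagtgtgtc
Bhlhe41: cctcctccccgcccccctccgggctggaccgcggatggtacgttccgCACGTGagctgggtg
The Arntl site lay on the plus strand at chr7:113207529-113207558, with its ROR element 31 bases into the RefSeq transcript. The Per1 stretch, on the plus strand at chr11:69098736-69098835, held its E-box 166 bases before the start of the first of 2 RefSeq entries, which lies inside the longer span GENCODE gives Per1. The Cry1 stretch, on the minus strand at chr10:85185072-85185171, held the letters AACGTG, which are CACGTT read on the other strand, 79 bases before the start, and CACGTG 60 bases before it. The Nr1d1 stretch lay on the minus strand at chr11:98775378-98775452 and held AACGTG 28 bases before the start. Bhlhe41, a paralog of Bhlhe40 described further on, is printed from the minus strand at chr6:145865559-145865620, with its E-box 153 bases before the start. All these distances are to RefSeq starts, which are not the starts of the GENCODE spans given further on.

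The libraries held between 726378 and 931168 counts, of which the clock genes together took between 114 and 197, or 0.0154% to 0.0212%. A count of 3, taken as the floor, was worth between 3.22 and 4.13 CPM on the unscaled totals of the 6 libraries. CPM is the count set to a common library total, elsewhere here scaled with the TMM method, which corrects totals for composition. Levels are compared between libraries for a gene and not between genes, because counts sit near the 3′ end of transcripts and were not set against length. The gene with the most counts in a marker list is named only as that. PCR was run for 12 cycles from 500 pg of RNA, but molecular identifiers were counted, and intervals from counts cover counting error only.

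The targeted gene was examined first. Piezo1 (chr8:122481698-122551329, GRCm38 as all positions here) had 11, 5 and 6 counts in the wild type libraries and 7, 12 and 9 in the cKO-labelled ones. Its level was thus no lower in the cKO-labelled group, with a count ratio of 1.34 (95% exact Poisson interval 0.741 to 2.46), and the groups overlapped. Transcripts that lack only the deleted exons may still be counted at the 3′ end, which was not tested. At that end 2441 exon bases are shared with Ctu2 on the opposite strand, so this count neither bears out nor goes against the labels. Ctu2 had 113 counts in the wild type group and 95 in the cKO-labelled group.

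The cells carried the markers of MuSCs in every library. Myod1, the transcription factor of activated MuSCs, was between 1053 and 1530 CPM, and Pax7 had 10, 26 and 19 counts in wild type and 16, 5 and 12 in the cKO-labelled libraries. Of 8 MuSC markers, 0 were called by edgeR, DESeq2 or limma-voom, each of which gave 3 an unadjusted p under 0.05 (edgeR called 0.784% of all genes tested and gave 11.9% an unadjusted p under 0.05), and the lowest adjusted p was that of Sdc4, a heparan sulfate proteoglycan, at a log2 fold change of -0.54 (adjusted p = 0.0609, edgeR). Cdh15, the muscle cadherin, was at 0.53 (adjusted p = 0.118) and Vcam1, an adhesion protein, at -0.45 (adjusted p = 0.185) in the same edgeR fit. With no filter, Sdc4 was called. Markers of endothelial and blood cells had low counts, and 0 passed the filter. Their summed levels were at most 7.01 and 27.2 CPM in any library. The most counts of each list were those of Kdr and Cd68, while Tie1 was at 0 in all libraries. Lyz2, a macrophage gene, had 11 counts in wild type 2 and 1 or 0 in each other library.

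The question asked of the clock genes is whether any of them, or the balance of activators and repressors, differed between the 2 labelled groups. Of the 10, 6 passed the filter on low counts (Clock, Arntl, Cry1, Cry2, Nr1d2 and Bhlhe40) and 4 did not (Per1, Per2, Nr1d1 and Dbp). None of the 6 was called by edgeR at an adjusted p under 0.05, and 0 had an unadjusted p under 0.05. DESeq2 and limma-voom also called 0 of the 6 and gave 0 an unadjusted p under 0.05, with 2 adjusted values of DESeq2 not available. In all 8551 genes tested, 67 were called, or 0.784%, and 1019 had an unadjusted p under 0.05, or 11.9%. The groups overlapped for all 6 genes, whereas they did not overlap for 16.4% of all genes tested. The cKO-labelled group was above wild type for 3 of the 6 and below for the other 3, with a median log2 fold change of -0.0053 beside 0.0021 over all genes tested, and it took either sign when one library was left out. The 95% intervals of the 6 reached from -0.95 to 0.85, so that none took in a change of 1 log2 unit in either direction. A count of 0 among 6 genes is near the share over all genes, so it marks out nothing about the clock genes, nor does it show that they were alike in both groups.

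**Figure D1:**
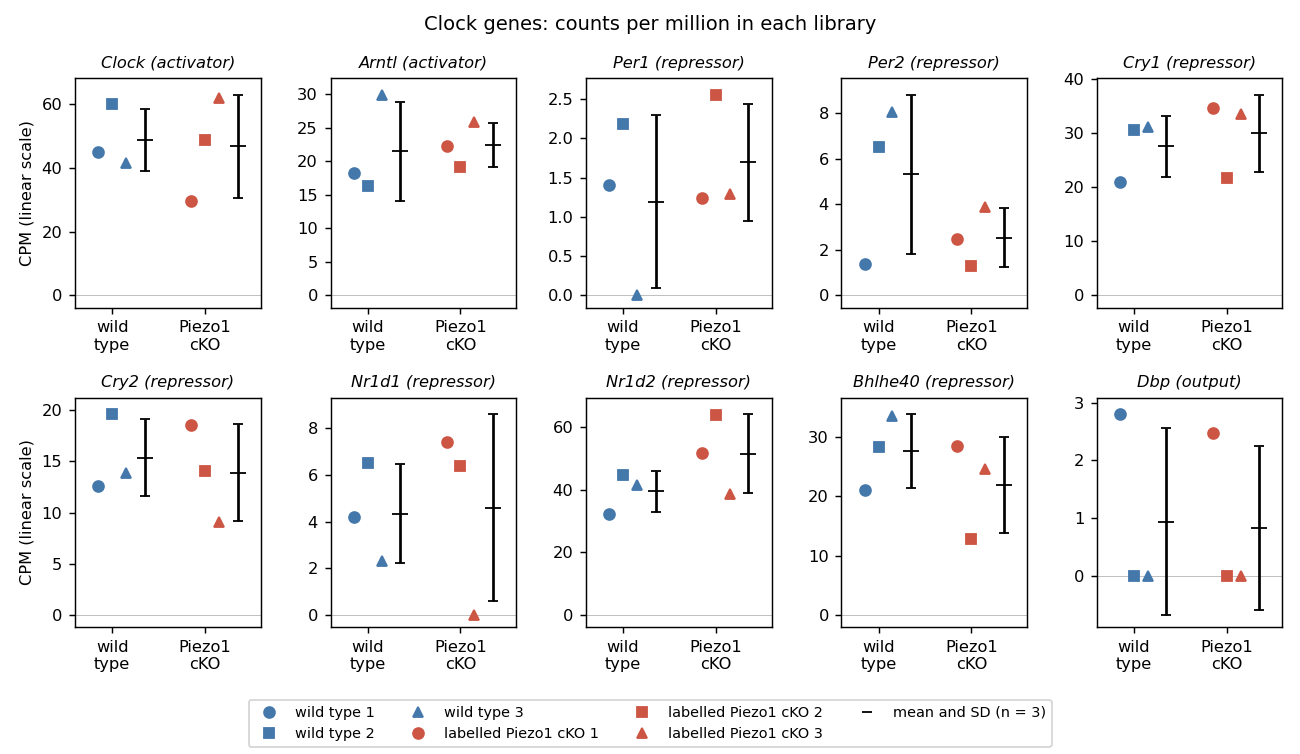
Level of each of the 10 clock genes in CPM (linear axis, one scale per gene) in the 3 wild type libraries (blue) and the 3 labelled Piezo1 cKO (red); the marker shape gives the replicate number, and the black bar beside each group is the mean and SD (n = 3). The groups overlap for every gene shown, and Per1, Nr1d1 and Dbp have libraries at 0.

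Neither activator passed the test. Clock (chr5:76209868-76304792), which encodes the partner of ARNTL, was at 44.9, 59.9 and 41.5 CPM in wild type and at 29.6, 48.6 and 62.0 CPM in the cKO-labelled libraries. The lowest and the highest of the 6 values were both in cKO-labelled libraries. The log2 fold change was -0.07 ± 0.24 (SE), with a 95% interval from -0.54 to 0.41 (adjusted p = 0.949, edgeR). The variance of Clock within groups was 3.05 times the counting variance, the widest ratio among the 6 genes tested.

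Arntl (chr7:113207465-113314126) had 13, 15 and 26 counts in wild type and 18, 15 and 20 in the cKO-labelled libraries. Its level was 18.2, 16.3 and 30.0 CPM in wild type and 22.2, 19.2 and 25.8 CPM in the cKO-labelled libraries. All 3 values of the latter lay inside the wild type range. The log2 fold change was 0.06 ± 0.32, with a 95% interval from -0.58 to 0.69 (adjusted p = 0.965, edgeR). The variance of Arntl within groups was 1.20 times that of counting, close to what depth alone gives. The genes whose levels ran closest to Arntl over the 6 libraries, of 8550 others tested, were Nucb1 (Pearson r = 0.999), Snx3 (r = 0.977) and Sgpl1 (r = 0.976), given as a description over 6 libraries of 2 groups that share depth; r was over 0.9 for 35 genes.

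Among the repressors, the PER genes were scarce. Per1 had 1, 2 and 0 counts in wild type and 1, 2 and 1 in the cKO-labelled libraries, at or below the floor in each. The count ratio was 1.41, with an exact Poisson interval from 0.238 to 9.61. Per2 (chr1:91415982-91459324) had 1, 6 and 7 counts in wild type and 2, 1 and 3 in the cKO-labelled libraries. The highest 2 were wild type libraries, but wild type 1 was as low as the lowest cKO-labelled library. Summed, this was 14 against 6 counts, a ratio of 0.453 (exact Poisson interval 0.143 to 1.25), and the difference of means gave p = 0.3 in a two-sided exact permutation test, in which 3 libraries against 3 cannot go below 0.1. A difference in Per2 was not detected.

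Cry1 and Cry2 encode the cryptochromes, which hold CLOCK and ARNTL inactive. Cry1 (chr10:85131700-85185064) was at 21.03, 30.5 and 31.1 CPM in wild type and at 34.6, 21.7 and 33.6 CPM in the cKO-labelled libraries. Each group had a low library and a pair of higher ones. The log2 fold change was 0.11 ± 0.28, with a 95% interval from -0.45 to 0.67 (adjusted p = 0.926, edgeR). Cry2 (chr2:92403646-92434043) was at 12.6, 19.6 and 13.8 CPM in wild type and at 18.5, 14.1 and 9.04 CPM in the cKO-labelled libraries. The groups overlapped widely, and the log2 fold change was -0.15 ± 0.38 (adjusted p = 0.922, edgeR). The interval for Cry2, from -0.92 to 0.61, was the widest of the 6, at counts of 7 to 18 in a library.

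Nr1d1 and Nr1d2 encode REV-ERBα and REV-ERBβ, the receptors that repress Arntl. Nr1d2 (chr14:18204054-18239127) was at 32.2, 44.7 and 41.5 CPM in wild type and at 51.9, 64.0 and 38.7 CPM in the cKO-labelled libraries. The highest pair of libraries was cKO-labelled, but the third lay inside the wild type range. The log2 fold change was 0.38 ± 0.24, with a 95% interval from -0.10 to 0.85 (adjusted p = 0.553, edgeR). Without Piezo1 cKO replicate 2 it was 0.19. Nr1d1 (chr11:98767932-98775333) had 3, 6 and 2 counts in wild type and 6, 5 and 0 in the cKO-labelled libraries. Both groups summed to 11 counts, a ratio of 1.06 (exact Poisson interval 0.415 to 2.69). Of these, 2 wild type libraries and 1 cKO-labelled library were at or below the floor. Exons of Nr1d1 and Thra, a thyroid hormone receptor gene, overlap on opposite strands over 263 bases (chr11:98768157-98768419), and since the strand setting of the counting is not given in the sources used here, their reads may not be told apart there. Thra itself had 17 counts in wild type and 12 in the cKO-labelled libraries. The levels closest to Nr1d1 over the 6 libraries, of 8551 genes, were those of Mettl1 (r = 0.994), Cln6 (r = 0.974) and Map4k1 (r = 0.970), with r over 0.9 for 44 genes, again as a description of counts this low.

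Bhlhe40 (chr6:108660629-108666925), an E-box repressor that also responds to hypoxia and serum, was at 21.03, 28.3 and 33.4 CPM in wild type and at 28.4, 12.8 and 24.5 CPM in the cKO-labelled libraries. Piezo1 cKO 2 was the lowest of the 6 and wild type 3 the highest, and the other libraries interleaved. The log2 fold change was -0.34 ± 0.31, with a 95% interval from -0.95 to 0.27 (adjusted p = 0.717, edgeR). Without Piezo1 cKO replicate 2 it was -0.07, and without wild type replicate 3 it was -0.18.

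The output gene Dbp (chr7:45705088-45710203) had 2, 0 and 0 counts in wild type and 2, 0 and 0 in the cKO-labelled libraries. Both groups were at or under the floor, so no fold is given. Its last 539 bases are shared with exons of Sphk2 on the opposite strand, which had 96 counts in wild type and 120 in the cKO-labelled libraries. Arntl, Cry2 and Bhlhe40 also share 33, 295 and 118 exon bases with gene models on the opposite strand. Tef, described further on, shares 193. How reads of these shared bases were assigned is not given in the sources used here.

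The limbs were then set against each other in each library, as the mean log2 CPM of Clock and Arntl minus that of the 4 repressors tested (Cry1, Cry2, Nr1d2 and Bhlhe40). The difference was 0.46, 0.088 and 0.33 in wild type 1, 2 and 3. It was -0.28, 0.43 and 0.77 in the cKO-labelled libraries 1, 2 and 3. The lowest and the highest balance were therefore both in the cKO-labelled group: its replicate 1 paired low activators with high repressors, and its replicate 3 did the opposite. The group means were 0.29 ± 0.19 (SD, n = 3) and 0.31 ± 0.53 (SD, n = 3), which differed by 0.014, less than the spread in either group. Taken from edgeR fold changes instead of log2 CPM per library, activators minus repressors was 0.28 without Piezo1 cKO replicate 1 and -0.24 without Piezo1 cKO replicate 3. Counting error alone gave each library's value an SE between 0.24 and 0.31. The activators averaged 5.01 log2 CPM in both groups, and the repressors 4.72 in wild type and 4.70 in the cKO-labelled group.

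**Figure D2:**
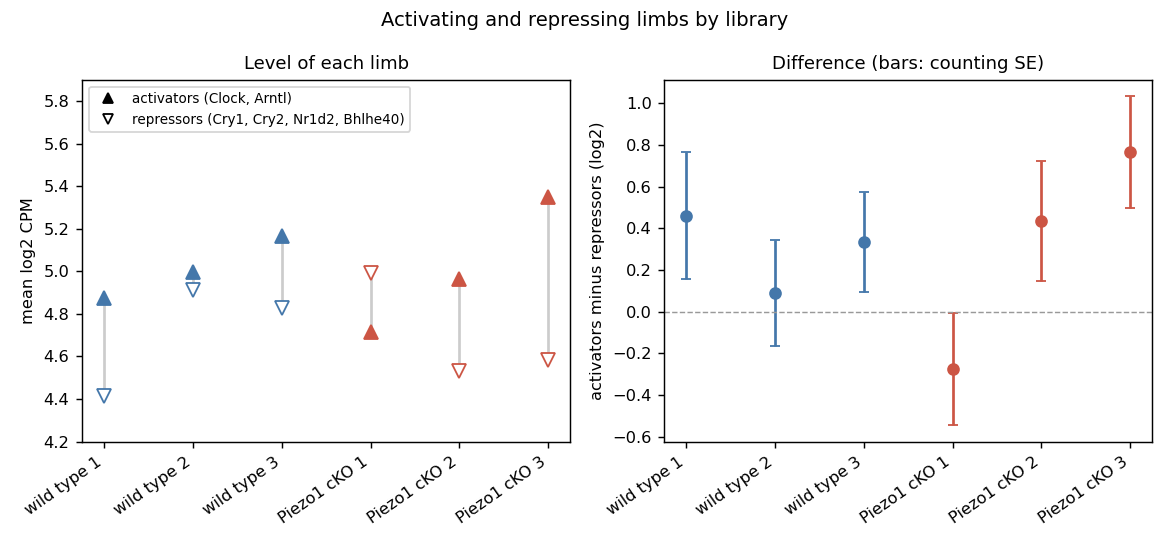
Left, mean log2 CPM of the activators (filled triangles) and of the 4 repressors tested (open triangles) in each library; right, activators minus repressors, with bars for the SE from counting. Wild type libraries (blue) lie between 0.088 and 0.46, and those labelled Piezo1 cKO (red) between -0.28 and 0.77, on both sides of the wild type range.

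The wider clock pathway was examined in a list of 31 further genes, of which 20 passed the filter and 0 were called by edgeR. In that fit, 2 of the 20 (10%, beside 11.9% of all genes) had an unadjusted p under 0.05, and 3 had groups that did not overlap (beside 16.4% of all genes). DESeq2 also called 0, with 1 at an unadjusted p under 0.05 and 3 adjusted values not available, and limma-voom called 0, with 2 at an unadjusted p under 0.05. With the 10 clock genes, 26 of 41 were tested, 13 were above and 13 below wild type, and the median log2 fold change was 0.01.

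The second activators and the ROR receptors, which drive Arntl, were scarce. Npas2, a stand-in for Clock, had 0, 0 and 0 counts in wild type and 1, 1 and 1 in the cKO-labelled libraries, below the floor in all. Arntl2 had 1 to 3 counts and Rora 2 to 8 in a library. Hlf, an output gene related to Dbp, had at most 1. Of 5 genes of this activating group 0 passed the filter.

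Of the further repressors, 2 of 4 were tested. Bhlhe41 (chr6:145858243-145865558), the E-box repressor closest to Bhlhe40, had 8, 9 and 18 counts in wild type and 21, 17 and 21 in the cKO-labelled libraries. This was 11.2, 9.81 and 20.7 CPM against 25.9, 21.7 and 27.1 CPM, so that every cKO-labelled library lay above every wild type library. The log2 fold change was 0.84 ± 0.34, with a 95% interval from 0.16 to 1.52 (unadjusted p = 0.0165, adjusted p = 0.273, edgeR). It did not pass the adjusted threshold. The filter favoured the group where Bhlhe41 is high. Wild type 1 and 2, at 8 and 9 counts, were under its minimum of 10, so wild type alone would not have passed it. A gene model of unknown standing, Gm43909, shares 1280 exon bases with it on the opposite strand. Timeless was at 39.3, 68.7 and 50.7 CPM in wild type and 48.2, 39.7 and 43.9 CPM in the cKO-labelled libraries, with groups that overlapped (log2 fold change -0.28, adjusted p = 0.686, edgeR). Per3 had 3 to 6 counts and Ciart 7 to 13 in a library, and neither passed the filter.

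Of the PAR bZIP outputs, which read D-boxes, only Tef was tested, and neither it nor Nfil3, which competes for the same sites, passed. Tef was at 49.1, 62.1 and 83.0 CPM in wild type and 88.9, 71.6 and 87.8 CPM in the cKO-labelled libraries (log2 fold change 0.35, adjusted p = 0.473, edgeR). Nfil3 was at 18.2, 15.3 and 13.8 CPM in wild type and 24.7, 33.3 and 15.5 CPM in the cKO-labelled libraries (0.65, adjusted p = 0.433, edgeR). The groups overlapped for both genes. Without wild type replicate 1 or 3 Tef was at 0.20 or 0.57, and without Piezo1 cKO replicate 2 Nfil3 was at 0.37.

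Of the kinases and ubiquitin ligases that set the life of PER and CRY proteins, 6 of 8 were tested and 0 called. Fbxw11, a β-TrCP ubiquitin ligase subunit that binds phosphorylated PER, was at 86.9, 85.0 and 92.2 CPM in wild type and at 124.7, 110.0 and 120.0 CPM in the cKO-labelled libraries. The groups did not overlap, and the log2 fold change was 0.43 ± 0.17, with a 95% interval from 0.10 to 0.76 (unadjusted p = 0.0106, adjusted p = 0.234, edgeR). Its paralog Btrc, the other β-TrCP gene, had 3 to 5 counts in a library. The casein kinase 1 genes Csnk1d and Csnk1e, which phosphorylate PER, were at log2 fold changes of -0.03 and -0.09. The 95% interval of Csnk1d, from -0.32 to 0.27, was narrower than those of the 6 clock genes tested.

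All 6 cofactors of the clock proteins were tested, with log2 fold changes between -0.10 and 0.22. Among the genes the clock drives, Wee1, a cell cycle kinase, was at 0.08 and Nampt, an enzyme of NAD synthesis, at -0.17. Usp2, a deubiquitinase, had 4 to 12 counts and was not tested. Pdk4, a kinase that holds back glucose oxidation, was at 113.6, 109.0 and 117.6 CPM in wild type and 122.3, 152.2 and 143.3 CPM in the cKO-labelled libraries. Its groups did not overlap, but its log2 fold change of 0.30 did not pass the test (adjusted p = 0.434, edgeR).

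**Figure D3:**
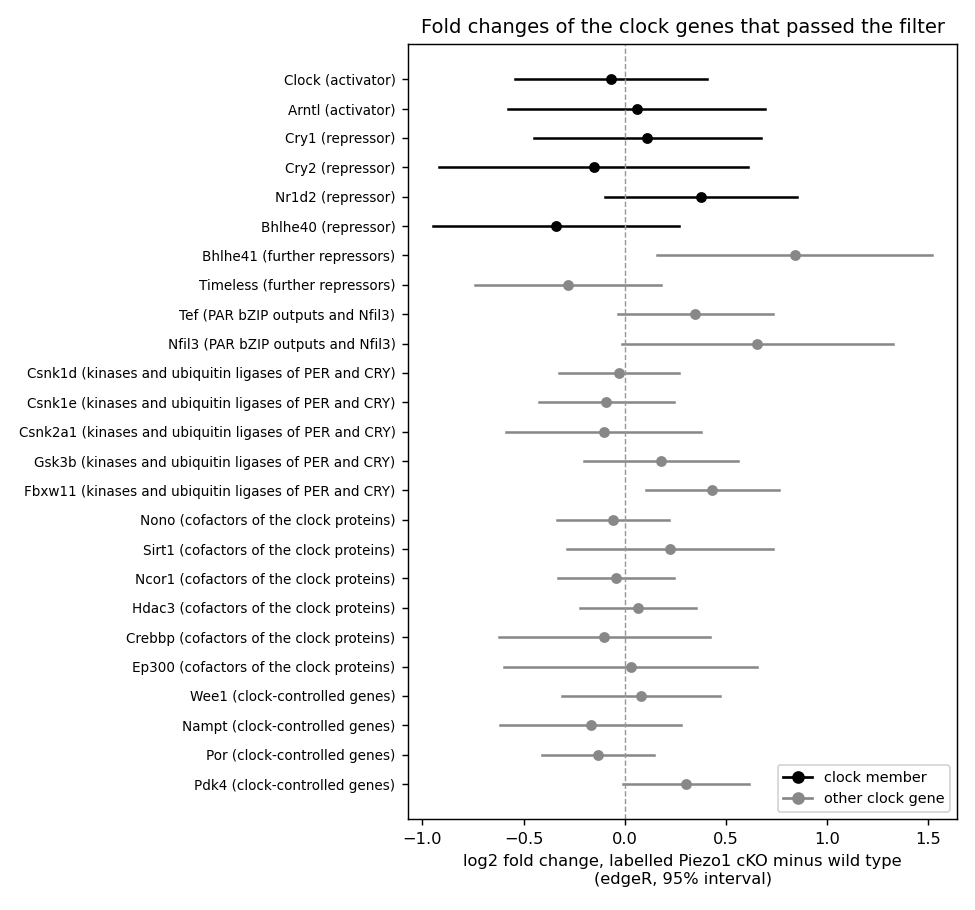
Log2 fold change (points) and 95% interval (lines) from edgeR for the 6 clock genes (black) and 19 of the 20 further clock pathway genes (grey) that passed the filter, with 0 marked by a dashed line. All 6 black intervals cross 0, and the intervals of Bhlhe41 and Fbxw11 do not, at adjusted p of 0.273 and 0.234. The wild type libraries alone would not have passed Bhlhe41 through the filter.

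Paralogs that share a role were compared as shares of their joint counts, a measure that library totals do not enter. Bhlhe41 held 34.8%, 25.7% and 38.3% of the counts of Bhlhe41 and Bhlhe40 together in wild type. It held 47.7%, 63.0% and 52.5% in the cKO-labelled libraries. The means were 32.9% ± 6.49 and 54.4% ± 7.79 (SD, n = 3), and the groups did not overlap. This pair was singled out after its values were seen, from 8 pairs computed, and is given with no test. The pair had only 23 to 47 counts in a library, and the 95% Wilson intervals of single libraries overlapped between groups except for wild type 2 (14.2% to 42.1%) against Piezo1 cKO 2 (44.2% to 78.5%).

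Clock held all of the counts of Clock and Npas2 in the wild type libraries and 96.0%, 97.4% and 98.0% in the cKO-labelled ones, a difference made by the 1 count of Npas2 in each. Of the other pairs, Cry1 held 64.2% ± 4.43 of the cryptochrome counts in wild type and 68.2% ± 9.42 in the cKO-labelled group. Nr1d2 held 90.1% ± 4.02 and 92.8% ± 6.46 of the REV-ERB counts. Csnk1d held 59.7% ± 1.89 and 60.9% ± 0.895 of the casein kinase counts, and Arntl 87.4% ± 5.84 and 89.5% ± 5.97 of those of Arntl and Arntl2. The groups overlapped for these 4 pairs, and also for Per2 with Per1 and for Tef with Dbp, which rest on few counts of at least 1 gene.

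**Figure D4:**
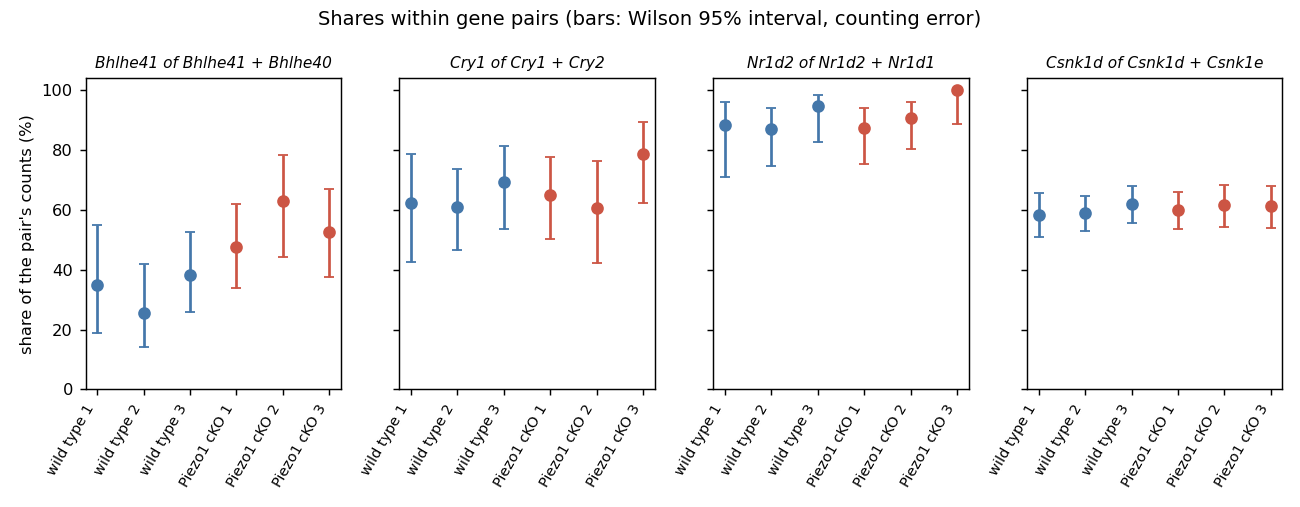
Share of the joint counts of a gene pair held by its first gene (linear axis, percent) in each library, wild type in blue and labelled Piezo1 cKO in red, with 95% Wilson intervals for counting error. The Bhlhe41 share lies between 25.7% and 38.3% in wild type and between 47.7% and 63.0% in the cKO-labelled libraries, and the groups overlap for the other 3 pairs.

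Genes of inputs that are known to reset the clock were examined in 3 lists. Of the immediate early genes, which serum induces, 8 of 17 were tested and 0 called by edgeR, DESeq2 or limma-voom. At an unadjusted p under 0.05 there was 1 by edgeR and 2 by each of the others, beside edgeR's 11.9% of all genes and 0.784% called, which are the shares to set beside the next lists too. Egr1, an early growth response factor, was at a log2 fold change of 0.55 (adjusted p = 0.159, edgeR), Jun at -0.24 and Ier3 at -0.68 (adjusted p = 0.497 and 0.502). With no filter, Ier3 was called. Of the glucocorticoid targets, 9 of 11 were tested and 0 called by any of the tools, with 1, 1 and 2 at an unadjusted p under 0.05 by edgeR, DESeq2 and limma-voom. Errfi1, a feedback inhibitor of the EGF receptor, was at -0.38 (adjusted p = 0.184), the metallothionein gene Mt1 at -0.29 and Tsc22d3, a classical glucocorticoid-induced gene, at 0.32, none of which passed the edgeR test. Per1 belongs to this list as well. Of the hypoxia targets, which include Bhlhe40, 9 of 13 were tested and 0 called by any of the tools, with 3, 2 and 3 at an unadjusted p under 0.05. Their median log2 fold change was -0.34, with 2 above and 7 below wild type. That median is the value of Bhlhe40 itself, so it adds nothing beside that gene. Egln3, an oxygen sensor, was at 0.59 (adjusted p = 0.187), and Slc2a1, a glucose transporter, and Ldha, lactate dehydrogenase, at -0.42 and -0.31 (adjusted p = 0.330 and 0.393, edgeR).

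Markers of cell state were set beside the clock genes. All 5 muscle differentiation markers tested lay above wild type in every cKO-labelled library, with a median log2 fold change of 2.01, while groups did not overlap for 16.4% of all genes. Wild type 2 had 3, 8 and 2 counts of Myog, Mymk and Tnni1, under the filter's minimum of 10. These genes passed only with cKO-labelled libraries, where they are high, so the count and the median partly follow from the filter. The edgeR test called 0 of the 5, with 3 at an unadjusted p under 0.05 (0.784% and 11.9% of all genes), DESeq2 called 1 (Acta1) and limma-voom called all 5. Over all 8551 genes tested, DESeq2 called 23 and limma-voom 72. Acta1, skeletal muscle actin, was at 2.01 (adjusted p = 0.241), Mymk, the myoblast fusion gene, at 1.98 (adjusted p = 0.370) and Tnnt3, a troponin of fast fibres, at 1.19 (adjusted p = 0.377, edgeR). With no filter, edgeR called Mymk, Tnnt3, Mymx and Myh3. Embryonic myosin Myh3 did not pass the filter, at 1, 0 and 0 counts in wild type and 9, 35 and 4 in the cKO-labelled libraries. Summed over the list, in which Acta1 had the most counts, the level was 294.4, 105.7 and 258.2 CPM in wild type and 505.1, 1292 and 640.2 CPM in the cKO-labelled libraries. Piezo1 cKO 2, the highest, was also the library with the least Bhlhe40 and the most Nr1d2. The part of differentiation in the clock values was not tested.

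All 10 proliferation markers lay below wild type, with a median log2 fold change of -0.30, and 0 were called by edgeR, DESeq2 or limma-voom, with 5, 3 and 4 at an unadjusted p under 0.05 (11.9% of all genes by edgeR, and 0.784% called). Their summed level was 3652, 3750 and 3547 CPM in wild type and 3427, 2582 and 3039 CPM in the cKO-labelled libraries, with the most counts from Rrm2. Mcm5, a replication helicase subunit, was at -0.44, Cdk1, the mitotic kinase, at -0.40 and Aurkb, a kinase of chromosome segregation, at -0.44 (adjusted p = 0.137, 0.159 and 0.234, edgeR). Among fibroblast and fibro-adipogenic markers, 3 of 6 were tested, and Dcn, decorin, was called lower (log2 fold change -2.20, adjusted p = 0.000387, edgeR), at 18, 23 and 37 counts in wild type and 8, 5 and 3 in the cKO-labelled libraries. The cKO-labelled counts were under the filter's minimum of 10, so Dcn was tested only through wild type, where it is high. Cd34 was at -1.59 and Col3a1, a fibrillar collagen, at 0.41 (adjusted p = 0.181 and 0.265, edgeR). DESeq2 called 0 of the 3, with no adjusted value for Dcn, and limma-voom called Dcn and Cd34, and each tool gave all 3 an unadjusted p under 0.05. Ly6a, which did not pass the filter, went the other way, at 2, 2 and 3 counts in wild type and 5, 8 and 9 in the cKO-labelled libraries (count ratio 3.32, exact Poisson interval 1.37 to 9.20). This list, with the most counts from Col3a1, summed to 266.4, 374.9 and 426.5 CPM in wild type and 316.1, 323.6 and 304.6 CPM in the cKO-labelled libraries. Cspg4, the only pericyte marker tested, was at 0.76 (adjusted p = 0.143, edgeR). Rgs5, another pericyte marker, did not pass the filter, at 0, 0 and 1 counts in wild type and 2, 4 and 6 in the cKO-labelled libraries (count ratio 12.7, exact Poisson interval 1.87 to 542). Cells had been sorted before culture for VCAM1 and against Sca1, which Ly6a encodes, CD31 and CD45. In bulk libraries, fewer cells of a type and less RNA per cell cannot be told apart, and the part of these cells in the clock values was not tested.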

How the data were processed

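Per the labels and the study's methods, the authors reverse transcribed RNA with barcoded primers, aligned reads to GRCm38 with STAR 2.7.9a, tallied genes with featureCounts 2.0.1 and collapsed molecular identifiers with UMI-tools 1.1.1. The deposited values are raw counts per gene, in 1 column per library, and settings for strand and for reads with several places are not given in the sources used here. Genes were tested in R 4.3.3 with edgeR 4.0.16 (TMM, filterByExpr with a minimum count of 10, robust quasi-likelihood fit) on all 8551 genes kept, with Benjamini-Hochberg adjustment over all of them and calls at an adjusted p under 0.05. Intervals of fold changes came from the quasi-likelihood F, and log2 CPM used a prior count of 0.5. Alternatives included DESeq2 1.42.0 and limma 3.58.1, other scalings and filters, thinning to the smallest library, and leaving out each library. The code was tested on simulated data. Replicate libraries differed beyond sampling noise (chi-square per degree of freedom 1.64 to 2.61), and each was counted once. This check cannot tell libraries of separate mice from separate preparations of the same cells. The genes and lists were chosen with earlier results of these data known, although the values of the 10 clock genes were not used to take them. Named were the 10 clock genes, 15 further clock genes and the 5 of that list with the lowest p, of each other list the called genes and the 3 with the lowest p, Piezo1, and the 3 genes most like Arntl and Nr1d1. Other genes (Btrc, Timeless, Lyz2, Ly6a, Rgs5, Myod1, Myog, Tnni1, Myh3, Mymx, marker genes at 0 and overlapping partners) were named after their values were seen. Positions are from GENCODE M21, matched by symbol. Ckm, Calcr, Cdh5, Ptprc, Itgam and Kcnj8 were not analysed here. The values of some genes and markers covered by this rule are not reported here.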

Additional observations from a re-analysis of the deposited data

How the results depend on the processing

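The count of 67 called genes fell to 23 with DESeq2 and rose to 129 with no filter and to 124 at an adjusted p under 0.1. Leaving out one library at a time gave between 6 and 174, with 105 without wild type replicate 1, 131 without wild type replicate 3, 174 without Piezo1 cKO replicate 1, 6 without Piezo1 cKO replicate 2 and 29 without Piezo1 cKO replicate 3. The share of calls that were higher was 59.7%, 73.1% on total counts only, 52.2% (12 and 11) with DESeq2 and, with one library left out, up to 82.8% (24 and 5) without Piezo1 cKO replicate 3. No clock gene reached an adjusted p under 0.05 in any alternative that tested it. Nr1d2 stayed between 0.19 and 0.54, Bhlhe40 between -0.58 and -0.07, Bhlhe41 between 0.62 and 1.26 (lowest adjusted p 0.106) and Fbxw11 between 0.39 and 0.51 (lowest adjusted p 0.132). Bhlhe41 and Cry2 were not tested where the filter asked for at least 10 counts in every library. The small fold changes of the other clock genes took either sign, over the ranges -0.33 to 0.17 for Clock, -0.12 to 0.39 for Arntl, -0.030 to 0.29 for Cry1 and -0.42 to 0.080 for Cry2 with one library left out. Clock was 0.0076 on total counts, where its CPM difference turned from -2.03 to 0.567, 0.031 when thinned, 0.12 without wild type replicate 2 and 0.17 without Piezo1 cKO replicate 1. Arntl was -0.030 without wild type replicate 1, -0.12 without wild type replicate 2 and -0.056 without Piezo1 cKO replicate 3. Cry1 was -0.030 without wild type replicate 1 and -0.010 without Piezo1 cKO replicate 1. Cry2 was 0.080 without wild type replicate 2 and 0.073 without Piezo1 cKO replicate 3. The cause was not tested. The median of the 6 clock genes was 0.070 on total counts and ranged from -0.073 without wild type replicate 1 to 0.10 without wild type replicate 2. In the alternatives, the replicate block included, the limb difference was taken from fold changes and not from log2 CPM per library. It ranged from -0.24 without Piezo1 cKO replicate 3 to 0.28 without Piezo1 cKO replicate 1. Per1, Per2, Nr1d1 and Dbp passed no filter and were fitted only with no filter. Numbers did not pair the libraries, since deviations of same-numbered libraries correlated at -0.142, -0.202 and 0.011. With the replicate block, 46 genes were called, none of them a clock gene, and the fold changes were -0.07 for Clock, 0.08 for Arntl, 0.11 for Cry1, -0.16 for Cry2, 0.38 for Nr1d2, -0.35 for Bhlhe40, 0.86 for Bhlhe41 and 0.43 for Fbxw11, the median of the members 0.0038 and the limb difference 0.011.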
